A study of Mus musculus with 2 samples.

Results

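The 9 genes described here, Lyz2, Fn1, F13a1, Csf1r, Fcgr1, Fcgr3, Cd14, C5ar1 and Adgre1, are commonly read as monocyte and macrophage genes. They were followed through 2 Affymetrix whole-transcript arrays of mouse spleen cells. Each gene was read from a probe set that names that gene alone. All 9 had 1 such probe set each, and they are 9 of 22180 genes measured in this way. The genes were selected on the difference in log2 intensity between the same 2 arrays, together with their known use as monocyte genes, so the values below are a description and support nothing by themselves.

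Both arrays held RNA from Fx-/- mice. Fx, also named Gfus, encodes an enzyme that makes GDP-fucose from mannose sugars, so mice that lack it depend on supplied fucose for their fucosylated glycans. On 1 array the mice were fucose-treated (on fucose), and on 1 array they received no fucose treatment (off fucose). The fucose dose and duration, the strain, age and sex of the mice and the number of mice behind each array are not given in the sources used here. The cells were labelled conventional type 1 dendritic cells (cDC1), a lineage specialised in presenting antigen to cytotoxic T cells, and had been enriched from spleen by bead depletion of cells with B220 or CD11b and bead selection of cells with CD11c. CD11b is carried by most monocytes, and its depletion was part of the preparation of both samples. No wild-type array was analysed here, and with 1 array a group no difference below has a replicate check or a test. In bulk RNA, fewer cells of a type and less RNA per cell cannot be told apart.

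Monocytes arise in the bone marrow from progenitors shared with neutrophils, circulate in the blood and are also held in the spleen. Their development and survival depend on the receptor encoded by Csf1r, and the transcription factors PU.1 and C/EBP drive many of their genes. They take up and kill microbes with lysozyme and other lysosomal enzymes, and recognise antibody-coated particles, complement fragments and bacterial lipopolysaccharide through surface receptors. Several of the 9 genes are also used by other cells. Neutrophils make Lyz2, Fcgr3 and C5ar1, megakaryocytes make F13a1, fibroblasts make Fn1, and NK cells carry Fcgr3.

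Promoter sequence is shown for 3 of the genes, because it lets the reader compare a gene with a large difference and a gene with a small one. RefSeq (GRCm38.p6) windows were found for 5 of the 9 genes, in 7 windows. Fn1 and Adgre1 had none in the table, and Csf1r and Cd14 are named only. The first 250 bases before each start site were searched on both strands for GAGGAA, a core of PU.1 sites, and for TTGCNNAA, a form of C/EBP site, and the matches found did not overlap. Of all 32851 RefSeq promoter windows of the same length, 23.3% held GAGGAA and 9.56% held TTGCNNAA. The windows below are given 5′ to 3′ on the strand of the gene, with matches to either motif in capitals.
Lyz2 (chr10:117282273-117282522, minus strand): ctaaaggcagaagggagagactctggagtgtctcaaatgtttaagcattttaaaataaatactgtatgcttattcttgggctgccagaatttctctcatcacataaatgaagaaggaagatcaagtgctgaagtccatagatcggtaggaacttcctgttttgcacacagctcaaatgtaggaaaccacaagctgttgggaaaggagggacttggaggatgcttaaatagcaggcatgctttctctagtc
F13a1 (chr13:37050245-37050494, minus strand): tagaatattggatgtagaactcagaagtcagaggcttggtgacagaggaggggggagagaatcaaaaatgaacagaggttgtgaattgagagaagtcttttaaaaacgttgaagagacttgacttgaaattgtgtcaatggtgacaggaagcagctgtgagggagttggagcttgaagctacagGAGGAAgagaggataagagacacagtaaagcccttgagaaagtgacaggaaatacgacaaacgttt
Fcgr1 (chr3:96293970-96294219, minus strand): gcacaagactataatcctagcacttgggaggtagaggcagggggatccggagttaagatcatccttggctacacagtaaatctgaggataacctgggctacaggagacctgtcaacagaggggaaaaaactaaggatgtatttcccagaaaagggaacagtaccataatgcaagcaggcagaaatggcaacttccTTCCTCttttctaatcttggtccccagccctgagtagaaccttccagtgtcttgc

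GAGGAA stood in the F13a1 window with its first base 66 bases before the start, and its reverse complement TTCCTC stood in the Fcgr1 window 55 bases before the start. The Fcgr3 window at the first of its 2 start sites held TTCCTC at 6 bases and TTAAGCAA, a match to TTGCNNAA on the opposite strand, at 28 bases before the start. The windows of Lyz2 and C5ar1 and the other start of F13a1 held neither motif. A GAGGAA match was thus present for F13a1, which was over 8-fold higher off fucose, and for Fcgr1, which stayed within 2-fold. A match is a description of letters and not evidence of a bound factor.

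Off fucose, 5 of the 9 genes had values at least 2-fold higher than on fucose, and none had a value at least 2-fold lower. These were the genes of 3 secreted proteins, Fn1, F13a1 and Lyz2, and of 2 receptors, Fcgr3 and Csf1r. Of all 22180 genes, 266 (1.20%) passed 2-fold upwards and 57 (0.257%) downwards. The other 4 genes, Fcgr1, C5ar1, Adgre1 and Cd14, were higher by 0.22 to 0.33 on the log2 scale. On fucose 17.0% (Fcgr1) to 42.7% (Cd14) of all genes had lower values than they did, and off fucose 44.0% (Adgre1) to 52.5% (Cd14). All 9 differences were above 0, which 47.6% of all genes were. The median difference of the 9 genes was 1.42, beside -0.00081 for all genes. All differences are off fucose minus on fucose in log2 RMA intensity, so that 1 is a 2-fold difference.

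**Figure D1:**
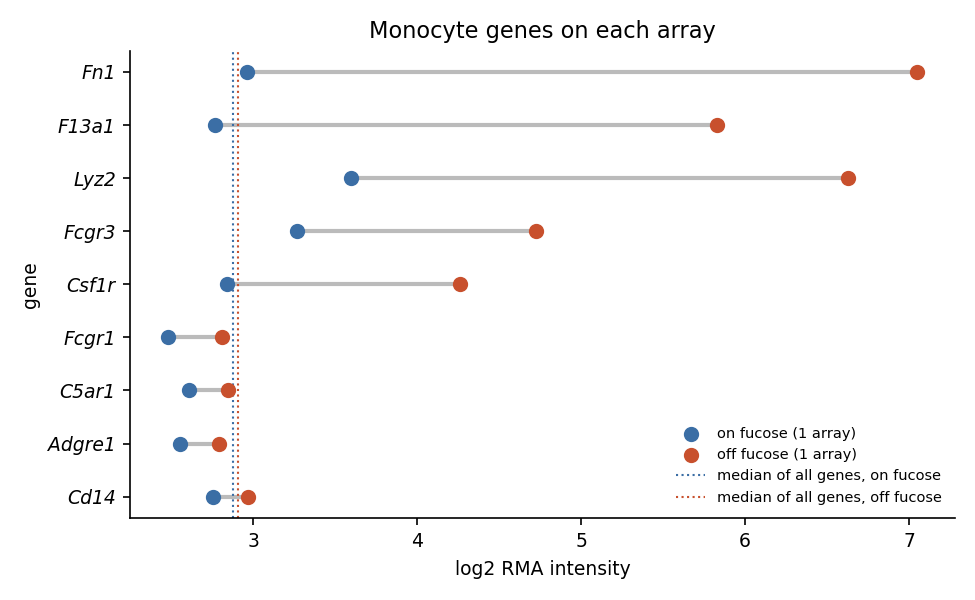
Each row is 1 monocyte gene, with its log2 RMA intensity on the on-fucose array (blue) and the off-fucose array (orange) and a grey line for the difference. Dotted lines mark the median of all genes on each array (2.88 and 2.91). Fn1, F13a1, Lyz2, Fcgr3 and Csf1r move away from the medians off fucose, while Fcgr1, C5ar1, Adgre1 and Cd14 lie below the median on fucose, by 0.40 at most, and beside it off fucose.

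Fn1 encodes fibronectin, an extracellular matrix and plasma protein that cells bind through integrins (chromosome 1, 71585473 to 71653280, GRCm38.p6). On the log2 scale it measured 2.96 with fucose and 7.05 without. That is a difference of 4.09, or 17.0-fold, and 8 of the 22180 genes had a larger one. On the on-fucose array Fn1 was 0.083 above the median of all genes, so its signal there was near the bottom of the scale, where array values understate differences.

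F13a1 encodes the A subunit of coagulation factor XIII, a transglutaminase that crosslinks fibrin and also fibronectin (chromosome 13, 36867178 to 37050244). Its log2 value was 2.77 with fucose and 5.83 without, which differ by 3.06 (8.34-fold). Its on-fucose value was below the median of all genes on that array, and with both arrays' low values raised to their medians the fold was 7.72.

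Lyz2 encodes lysozyme M, which cuts bacterial cell walls and is abundant in monocytes, macrophages and neutrophils (chromosome 10, 117277541 to 117282272). The on-fucose array gave 3.60 and the off-fucose array 6.63, a gap of 3.03 (8.16-fold). Its on-fucose value was 0.72 above the median of all genes on that array. The neighbouring lysozyme gene Lyz1, best known from Paneth cells of the gut, went from 2.69 to 3.24 (0.55). Lyz1 and Lyz2 are close copies, and how far their probe sets detect each other's RNA was not tested.

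Fcgr3 encodes the low-affinity IgG receptor CD16 of myeloid and NK cells (chromosome 1, 171051169 to 171065915). It stood at 3.27 with fucose and at 4.73 without, higher by 1.46 (2.75-fold). Csf1r encodes the receptor for the growth factors CSF1 and IL-34 (chromosome 18, 61105572 to 61131139). It stood at 2.84 with fucose and at 4.26 without, higher by 1.42 (2.68-fold). Csf1r was the smallest of the 5 differences past 2-fold, and Fcgr1, at 0.33, was the nearest one short of it, so no gene lay close to that limit.

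The 4 genes with small differences all encode surface receptors. Fcgr1, the high-affinity IgG receptor CD64 (chromosome 3, 96282909 to 96293969), had 2.48 on fucose and 2.81 off fucose. C5ar1, the receptor for the complement fragment C5a (chromosome 7, 16246743 to 16259540), had 2.61 and 2.85. Adgre1, which encodes the macrophage antigen F4/80 (chromosome 17, 57358581 to 57483529), had 2.56 and 2.79. Cd14, the lipopolysaccharide co-receptor (chromosome 18, 36725064 to 36726815), had 2.75 and 2.97.

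On fucose all 4 were below the median of all genes on that array, and off fucose only Cd14 was above it, by 0.065. With low values raised to the array medians their differences were 0.027 for Fcgr1, C5ar1 and Adgre1 and 0.092 for Cd14. Differences as large as theirs or larger were found for 9.00% (Fcgr1) to 17.0% (Cd14) of all genes. No detection calls were at hand, so a low value may come from little RNA or from a probe set that responds poorly, and neither was tested.

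**Figure D2:**
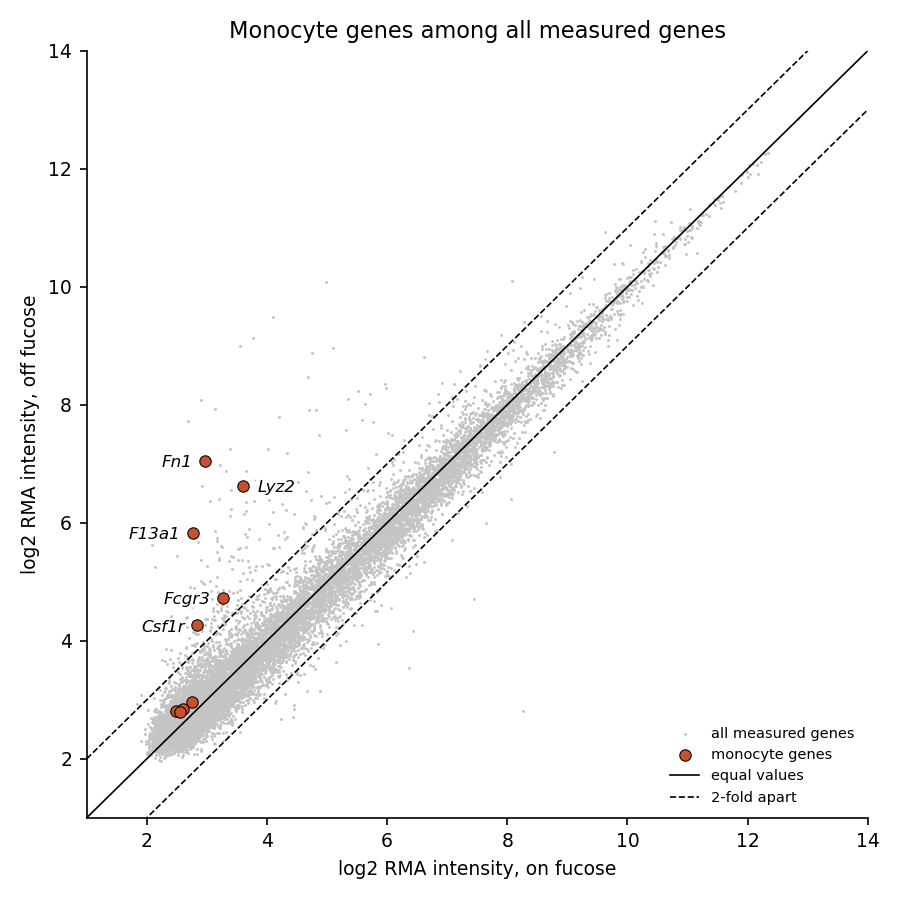
Each grey point is 1 of the 22180 measured genes, by its log2 RMA intensity on fucose (horizontal axis) and off fucose (vertical axis), with the 9 monocyte genes in orange. The solid line marks equal values and the dashed lines a 2-fold difference. Fn1, Lyz2, F13a1, Fcgr3 and Csf1r lie above the upper dashed line, and the other 4 lie in the dense group of low values.

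With 2 arrays a gene's pattern is a single difference. Genes were compared whose mean over both arrays reached 2.88, the midpoint of all genes. Those named as predicted genes, RIKEN clones, small RNAs, olfactory or vomeronasal receptors or immune receptor segments were left out. Among the rest, F13a1 (3.06) was nearest to Lyz2. The nearest outside the 9 genes were the mast cell and basophil protease gene Cpa3 (3.09) and the Y-linked genes Uty (3.12) and Kdm5d (2.94). Outside the 9 genes, nearest to Fn1 were the basophil protease gene Prss34 (4.12), the water channel gene Aqp1 (3.87) and Ifitm2 (3.87), an interferon-induced membrane protein gene. Uty and Kdm5d were near Lyz2 in size, and Xist, which acts in X inactivation in females, differed the other way, from 8.26 on fucose to 2.82 off fucose. Kdm5d went from 2.50 on fucose to 5.44 off fucose, and Uty from 2.14 to 5.26. By these genes the RNA was of female type on fucose and of male type off fucose. Sex and fucose supply thus differed together, and they cannot be told apart as sources of the differences of the 9 genes.

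Of 114 further genes on 10 lists of related pathways, 104 had a probe set of their own. Off fucose, 23 of these (22.1%) passed 2-fold upwards and 0 downwards, beside 1.20% and 0.257% of all genes, and their median difference was 0.22. Of the listed genes, 6 are also on the lists of markers of other cell types given below, and 4 of those 6 were at least 2-fold higher. The lists were chosen with earlier results of these data known, so these shares are a description and support nothing by themselves. The differences were spread unevenly over the lists.

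Among genes of classical monocytes, the subset with high Ly6C that inflamed tissues recruit, 4 of 9 measured were at least 2-fold higher, and the median was 0.80. The haptoglobin gene Hp went from 2.92 to 6.62 (3.70), and Ms4a6c, a membrane protein gene of monocytes, from 4.01 to 7.26 (3.25). Ccr2, the chemokine receptor with which these monocytes leave the marrow, went from 3.59 to 5.15 (1.55), and Plac8 from 7.62 to 8.77 (1.15). Ly6c2, which encodes the Ly6C antigen and is also made by memory cytotoxic T cells, went from 10.44 to 10.89 (0.45). Vcan, the proteoglycan gene of classical monocytes, was below the array medians at 2.61 and 2.82.

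Among genes of non-classical, patrolling monocytes, 2 of 10 were at least 2-fold higher, and the median was 0. These were Nr4a1 (7.55 to 8.65; 1.10), a transcription factor gene that this subset needs and that activated T cells also induce, and Treml4 (4.29 to 5.30; 1.01). The chemokine receptor gene Cx3cr1 had 3.17 and 3.45 (0.28). Itgal, an integrin gene of most leukocytes, had the largest negative difference of the list (-0.49). Ace and Cd300e had identical values on both arrays.

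The ligands of Csf1r differed less than the receptor. Csf1 went from 3.15 to 3.97 (0.82), and Il34, its other ligand gene, had 2.63 and 2.67. Receptors of the related growth factors were higher off fucose, with Csf2ra, the GM-CSF receptor alpha chain, at 1.45, Csf2rb2, the beta chain specific to the IL-3 receptor, at 1.43, and Csf3r, the receptor for the neutrophil growth factor G-CSF, at 1.33. Csf2rb, the common beta chain that the GM-CSF receptor uses, had 0.74, short of 2-fold. With the stem cell factor receptor gene Kit (1.03) this made 4 of 11 genes past 2-fold, and the list had a median of 0.82. Csf2 and Csf3, the genes of 2 of the growth factors themselves, lay below the array medians on both arrays.

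Of 8 measured transcription factor genes of the lineage, 2 were at least 2-fold higher. Irf8, which monocytes and cDC1 both need, went from 4.18 to 6.68 (2.50), but its second probe set had 2.81 and 3.02 (0.21). Klf4, which acts in monocyte differentiation, went from 2.81 to 4.79 (1.98). Spi1, which encodes PU.1, had 0.81 and Cebpa 0.77, both short of 2-fold. Gfi1, a repressor that favours neutrophils over monocytes, had the largest negative difference (-0.52). Its signal was low, with 3.13 on fucose and 2.61, below the array median, off fucose.

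The signalling chain genes Fcer1g and Tyrobp differed more than the Fc receptor genes, whereas Ms4a2, a signalling chain of the IgE receptor, had 0.21. Fcer1g, the chain that Fcgr1 and Fcgr3 need for surface expression and signalling, went from 5.31 to 7.58 (2.27). Tyrobp, a related adaptor of many myeloid and NK cell receptors, went from 5.72 to 8.19 (2.47). Fcer1a, the IgE receptor chain of basophils and mast cells, had 1.57, which made 3 of 11 genes at least 2-fold higher (median 0.43). The inhibitory receptor gene Fcgr2b had 0.69 and Fcgr4, a receptor of non-classical monocytes, 0.33. Syk, the kinase that these chains recruit, had 0.80, and the phosphatase gene Inpp5d had 0.0045.

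Beside Cd14, the other genes of lipopolysaccharide recognition were mostly level. Tlr4, the receptor that Cd14 serves, had 2.50 and 2.49, and its partner Ly96 had 2.65 and 2.68, both below the array medians. The list had 2 of 12 genes at least 2-fold higher and a median of 0.067. Ly86, which encodes the MD-1 partner of CD180 on B cells and myeloid cells, went from 4.68 to 6.85 (2.17), and the binding protein gene Lbp from 4.63 to 5.99 (1.36). The adaptor gene Myd88 had 0.056.

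Beside C5ar1, the complement list had 1 of 15 genes at least 2-fold higher and a median of 0.032. This was Cfp, which encodes properdin, a stabiliser of the alternative pathway that neutrophils and monocytes make, at 3.17 and 5.08 (1.91). C5ar2, the other C5a receptor gene, had 0.032 and C3ar1 0.21. Itgam, which encodes the CD11b used for depletion, went from 3.07 to 3.66 (0.59). C1qa, a gene of macrophages, had the largest negative difference of the list (-0.58).

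Beside Fn1 and F13a1, 1 of 14 genes of coagulation and fibronectin binding was at least 2-fold higher. This was Plaur, the urokinase receptor gene of monocytes and neutrophils, at 4.45 and 6.15 (1.69). Itga5, the alpha chain of the main fibronectin receptor, went from 3.30 to 4.28 (0.98), just short of 2-fold, and its partner Itgb1 had 0.19. Itga4, a chain of another fibronectin receptor, had -0.28. F13b, the gene of the carrier subunit of factor XIII, which the liver makes, had 2.56 on both arrays.

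Of the 11 measured phagocyte genes, 3 were at least 2-fold higher, and the median was 0.81. They were the oxidase gene Cybb (3.66 to 6.19; 2.54), Sirpa, an inhibitory receptor gene of myeloid cells (1.66), and the pore-forming protein gene Mpeg1 (1.35). The lysosomal protein gene Cd68 had 0.81. The macrophage scavenger receptor genes Msr1 and Marco had 0.095 and -0.087. Of the 5 measured adhesion GPCR genes, the class of Adgre1, only Adgrg1, a gene of progenitors and cytotoxic lymphocytes, was at least 2-fold higher (3.20 to 5.37; 2.17), and the median was -0.10.

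**Figure D3:**
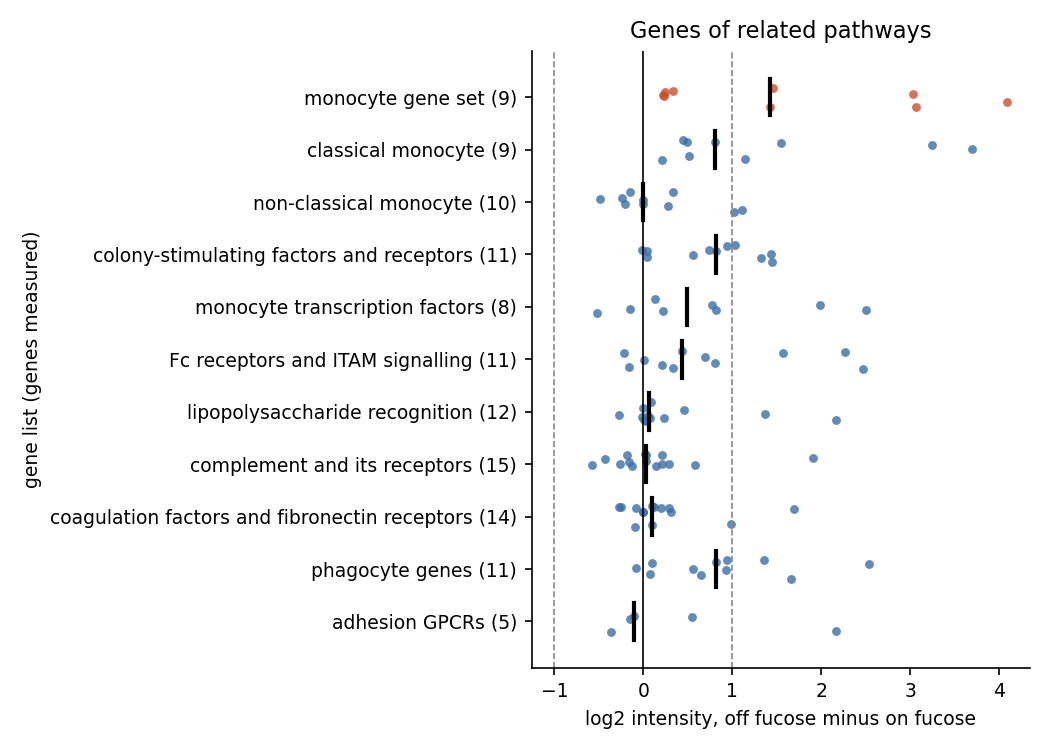
Each point is 1 gene, placed by its difference in log2 RMA intensity, off fucose minus on fucose; rows are gene lists with the number of genes measured, vertical scatter only separates points, black bars are medians and dashed lines mark 2-fold. The 9 monocyte genes are orange with a median of 1.42, and the medians of the other lists run from -0.10 (adhesion GPCRs) to 0.82 (colony-stimulating factors and receptors).

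Markers of other cell types differed between the arrays as well. None of the 9 genes is on these lists. For each list the summed linear intensity of its measured genes is given on fucose and then off fucose. The 9 monocyte genes summed to 67.8 and 363, and Fn1, Lyz2 and F13a1 made up 79.4% of the second sum.

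The granulocyte precursor genes (Elane, Mpo, Prtn3, Ctsg and Ms4a3) were all at least 2-fold higher off fucose, with sums of 76.4 and 2841 and a median difference of 5.18. Of 12 mature neutrophil genes, 5 were at least 2-fold higher, with sums of 85.2 and 221. S100a8 went from 2.08 to 5.62, whereas Ly6g, the antigen that defines mouse neutrophils, had 2.23 and 2.93. All 7 measured erythroid genes were at least 2-fold higher (79.9 and 514), as were 5 of 9 basophil and eosinophil genes (120 and 1353). Of 6 megakaryocyte genes, which matter here because that lineage makes F13a1, 2 were at least 2-fold higher (67.6 and 126), the chemokine genes Ppbp at 2.27 and Pf4 at 1.01. The part of these cell types in the values of Lyz2, F13a1 and the others was not tested. Nor was their part in the values of the pathway genes, such as Hp.

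Most red pulp macrophage genes, by contrast, were below the array medians. None of 9 was at least 2-fold apart, with sums of 59.2 and 67.4, and 6 of the 9 were below the median of all genes off fucose. Spic, the transcription factor gene of these macrophages, had 2.49 on both arrays, and Cd163 had 2.36 and 2.44. Slc40a1 had the largest difference of the list, from 2.42 to 3.19 (0.77). By any amount, 7 of the 9 were higher off fucose and 1 was lower. None of 8 stromal and endothelial genes was 2-fold apart (413 and 350), and Pecam1 alone gave 364 and 302 of these sums. The collagen genes Col1a2 and Col3a1 lay below the median of all genes on both arrays. Col1a1 had 3.10 on fucose, above it, and 2.81 off fucose, below it. Pdgfrb, on the same list, lay above it on both arrays (2.99 and 3.13). The part of fibroblasts in the values of Fn1 was not tested.

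Of the lineage named in the labels, 4 of 9 measured cDC1 genes were at least 2-fold higher off fucose, with sums of 544 and 935 and a median of 0.92. Cytotoxic T cells also make Cd8a. Without it, an alternative chosen after seeing the data, the other 8 genes summed to 212 and 637, with a median of 1.24 and 4 of them past 2-fold. Naaa alone gave 62.5 and 328 of these sums. Xcr1, the receptor that defines cDC1, was near the array medians with 2.90 and 3.43. The cDC2 genes had 2 of 7 at least 2-fold higher (57.1 and 106). The 9 measured T cell genes were all lower by at most 0.50, with sums of 11956 and 9854, and among them Cd3e had 10.97 and 10.55. The label cDC1 therefore does not describe all of the RNA on either array. None of the 5 plasmacytoid dendritic cell genes (615 and 611) was 2-fold apart, nor any of the 9 NK cell genes (1404 and 978). The same held for the 5 B cell genes (62.5 and 58.0). Bst2 alone gave 577 and 568 of the plasmacytoid sums, and Il2rb gave 823 and 512 of the NK cell sums. Siglech, also on the plasmacytoid list, lay below the array medians (2.48 and 2.32).

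**Figure D4:**
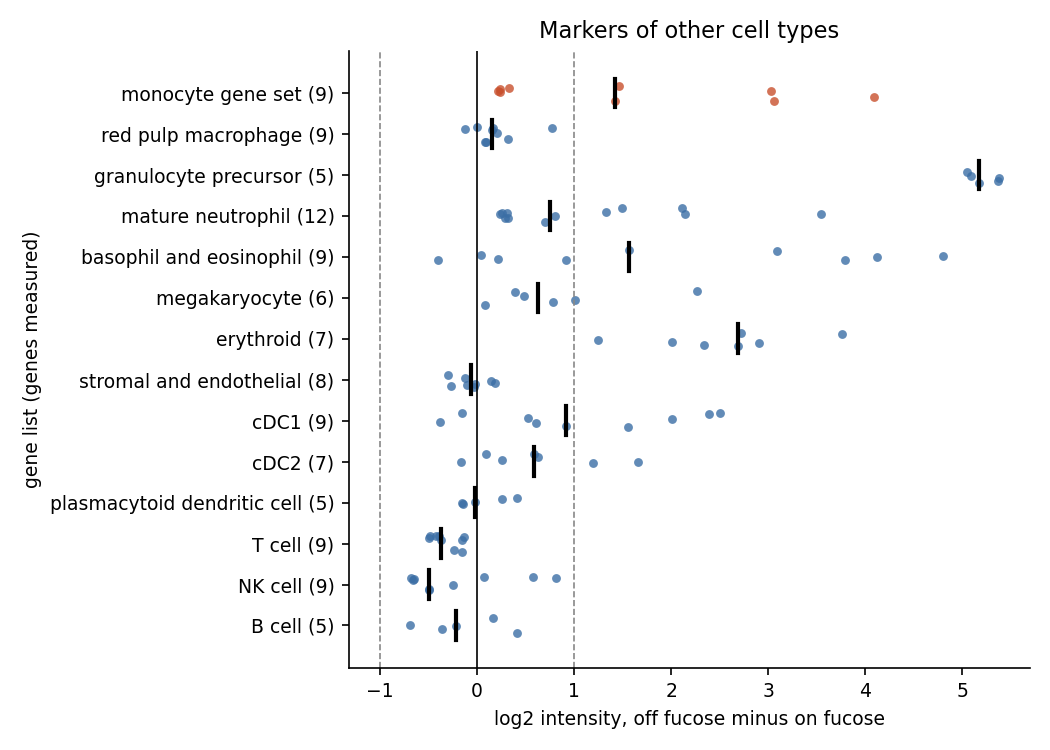
Each point is 1 marker gene, placed by its difference in log2 RMA intensity, off fucose minus on fucose; rows are cell types with the number of genes measured, vertical scatter only separates points, black bars are medians and dashed lines mark 2-fold. The granulocyte precursor (5.18), erythroid (2.69) and basophil and eosinophil (1.57) medians lie above that of the monocyte genes (1.42). The red pulp macrophage median is 0.16.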

How the data were processed

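RNA (9 ng a sample, WT Pico labelling, per the labels) was measured on 2 arrays, 1 in each group. The deposited table holds 1 linear intensity for each of 41345 probe sets and array, and per the submitters' processing notes the authors obtained these values with RMA. The version and settings of RMA, and the genome build, are not given in the sources used here. The method equalises the arrays' distributions, so a shift of all genes would not be visible, and it compresses differences near the lowest intensities. Values ran from 2.74 to 9512, so they were read as linear and log2 was taken. The column medians were 2.81 on fucose and 2.82 off fucose (log2).

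Gene names came from the platform annotation, in which 23521 probe sets had 1 symbol, and all 9 members matched RefSeq (GRCm38.p6) by Entrez ID. No genome was used, so gene positions are those of the RefSeq table. Groups came from the treatment label. With 1 array a group there was no test, and arrays have no read depth, so their number limits the precision. A gene was counted when at least 2-fold apart, over all measured genes without an expression filter. The pathway and marker lists, the motifs and the 9 members were chosen with earlier results of these data known. Named genes were the members, up to 4 genes of each pathway list by size of difference with others whose role belongs to the list, up to 3 of each cell type list, and the 3 genes outside the members nearest in difference to Lyz2 and to Fn1. The nearest genes were ranked after the exclusions given with them. Xist, which is on no list, and a few more list genes, such as the collagen genes, were named after their values were seen. The counting of genes was tested on simulated data with planted differences well past 2-fold and little noise. It therefore checks the counting alone and not differences near the limit. Calculations used Python 3.11.15, numpy 2.4.6 and pandas 2.3.3. Alternatives were the mean of probe sets, an expression filter, quantile normalization, loess (span 0.3), median centring, centring on the T cell list, a floor at the array median and thresholds of 1.5-fold and 3-fold.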

Additional observations from a re-analysis of the deposited data

How the results depend on the processing

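Fn1, Lyz2, F13a1, Fcgr3 and Csf1r were at least 2-fold higher off fucose under the main setting and under all 7 alternatives that keep that threshold, with ranges of 4.09 to 4.46, 3.03 to 3.40, 2.95 to 3.43, 1.44 to 1.83 and 1.38 to 1.80. Fcgr1, C5ar1, Adgre1 and Cd14 stayed short of it in each setting that kept them, with highest values of 0.59 to 0.70 under centring on the T cell list. The mean of probe sets and the expression filter could not change any of these differences. Each gene had a single probe set, and a filter only drops genes. Median centring only removed the median difference of all genes, -0.00081. At 3-fold, 3 of the 9 genes were counted, since Fcgr3 and Csf1r fall between the thresholds. The expression filter, a mean log2 intensity of at least 2.88, removed those 4 dim genes and moved the median of the rest to 3.03. Of the 5 genes that passed, F13a1 and Csf1r were below that limit on fucose and passed through their off-fucose value, so this median has no weight. Centring on the T cell list moved the median of all genes to 0.37 and the counts to 631 higher and 18 lower, against 266 and 57, so 97.2% rather than 82.4% of the genes counted were higher. It moved the pathway genes at least 2-fold higher from 23 to 36. At 1.5-fold the counts were 711 higher, 505 lower and 37 pathway genes higher, and at 3-fold 118, 12 and 12. No paired analysis was possible because there was a single array on fucose and a single array off fucose, and for that reason neither could be left out. Signal near or below the array medians limits what can be said of Fcgr1, C5ar1, Adgre1 and Cd14.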
